A study of Homo sapiens with 6 samples.

Results

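The BCL2 family decides whether the outer membrane of a mitochondrion is opened during apoptosis. Its 10 genes described here were chosen by symbol, with no threshold on a measured value but with earlier results of these data known. All 10 were found among the 17513 deposited genes. They fall into 3 roles. MCL1, BCL2, BCL2L1 and BCL2A1 encode survival proteins, which hold the other members in check. BAX and BAK1 encode the effectors, which form pores in the outer membrane and release cytochrome c. BBC3 (PUMA), PMAIP1 (NOXA), BCL2L11 (BIM) and BID encode BH3-only proteins, which sense damage or stress and either occupy the survival proteins or activate the effectors. NOXA binds MCL1 and BCL2A1 in preference to BCL2. In monocytes and macrophages MCL1 is known as a short-lived protein on which survival depends, and BCL2A1 as a gene of blood cells that inflammatory NF-kB signalling induces.

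The libraries are 6 samples of polyadenylated RNA, 3 in each of 2 groups. Per the series description the cells were macrophages made from THP1 (a line from a human monocytic leukemia). They spent 48 h in conditioned medium of KYSE150 cells, a line from an esophageal squamous cell carcinoma. In the reference group the KYSE150 cells carried the hairpin shNC, and in the other group shSPP1#2, a hairpin named for SPP1, which encodes the secreted protein osteopontin. The sample labels name KYSE150 itself as the cell. Each group is thus 1 hairpin acting through medium on 1 cell line, and separate cultures are not named for the replicates. The p-values therefore speak of the spread among these 6 samples, part or all of which may be technical.

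Of 18 monocyte and macrophage markers, 16 reached 1 FPKM (fragments scaled by transcript length and library total) in every library. Of the 21 squamous epithelial markers present among the deposited genes, 3 or 4 did. Summed levels of the macrophage list ran from 2721 to 2922 FPKM in shNC medium and from 2662 to 2730 FPKM in shSPP1#2 medium. Those of the epithelial list were 32.2 to 34.3 and 33.3 to 35.3 FPKM, of which the laminin chain LAMB3 gave a mean of 15.8 FPKM. The groups are therefore called by medium, with the hairpin taken from the labels. Sums of the T and NK cell list (7 of 13 markers present) were 243 to 285 FPKM in shNC medium and 224 to 249 FPKM in shSPP1#2 medium. They were mostly the granule protein GNLY at 214 to 274 FPKM. CD3D, CD3E, CD2, TRAC, TRBC1 and GZMA were absent from the deposited genes, and 3 or 4 of the 7 reached 1 FPKM in each library. Sums of the B cell list were 0.97 to 1.46 and 0.99 to 1.26 FPKM, and those of the fibroblast list 29.4 to 32.5 and 28.6 to 31.9 FPKM. No marker of these 5 lists passed the edgeR test described with the comparison; log2 fold changes here are shSPP1#2 minus shNC. The macrophage markers of smallest p, the Fc receptor chain FCER1G and AIF1, measured -0.18 and -0.21, and without shNC replicate 2 they measured -0.09 and -0.14. GNLY measured -0.17, and -0.10 without shNC replicate 2; with a replicate block it passed the test (edgeR adjusted p = 0.0421). The fibroblast collagens COL3A1 and COL1A2 measured -1.42 and -0.85 at mean levels of 0.16 and 0.38 FPKM, and -0.85 and -0.26 without shNC replicate 3. COL1A1, the most abundant of that list at 17.9 FPKM, measured 0.06, and 0.02 to 0.11 with single libraries left out (lowest without shSPP1#2 replicate 2, highest without shSPP1#2 replicate 1). The epithelial keratin KRT18 measured -0.81 at a mean of 0.45 FPKM. The part of other cells in the family's values was not tested. In bulk RNA, fewer cells of a type and less RNA per cell cannot be told apart. Libraries held 18113591 (shNC replicate 2) to 20626346 (shNC replicate 3) estimated counts. The library of shNC replicate 2 stood apart on the first principal component (22.5 against -10.5 to 1.63). That of shSPP1#2 replicate 2 stood apart on the second (20.3 against -13.8 to 0.64).

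Promoter sequences are shown for 3 members. PMAIP1 and BAX had the smallest p of the family in the comparison of media, in opposite directions, and BCL2A1 is the blood cell gene of the survival role. Each runs from 250 bases before the transcript start to 50 after it, 5′ to 3′ on the strand of the gene, from RefSeq on GRCh38.p14, in which 9 of the 10 members matched (not MCL1). Capitals mark every match, on either strand, to the motifs searched: the TATA box TATAAA, the core TGACG of the cyclic AMP response element, the GC box GGGCGG, the CCAAT box CCAAT, the E box CACGTG, the NF-kB site and the p53 decamer.
PMAIP1, chr18:59899746-59900045, plus strand: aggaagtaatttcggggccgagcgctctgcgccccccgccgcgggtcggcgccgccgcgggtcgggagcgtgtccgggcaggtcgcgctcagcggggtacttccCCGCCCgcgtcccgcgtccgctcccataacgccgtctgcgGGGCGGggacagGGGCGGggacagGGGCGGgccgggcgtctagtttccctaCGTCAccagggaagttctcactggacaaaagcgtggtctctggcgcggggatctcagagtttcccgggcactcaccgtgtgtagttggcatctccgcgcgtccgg
BAX, chr19:48954625-48954924, plus strand: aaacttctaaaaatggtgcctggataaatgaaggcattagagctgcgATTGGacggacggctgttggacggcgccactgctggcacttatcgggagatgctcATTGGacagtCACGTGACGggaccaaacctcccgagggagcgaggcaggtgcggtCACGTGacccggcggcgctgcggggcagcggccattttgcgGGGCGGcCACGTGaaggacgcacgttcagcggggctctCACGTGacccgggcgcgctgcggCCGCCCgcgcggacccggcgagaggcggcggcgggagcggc
BCL2A1, chr15:79971147-79971446, minus strand: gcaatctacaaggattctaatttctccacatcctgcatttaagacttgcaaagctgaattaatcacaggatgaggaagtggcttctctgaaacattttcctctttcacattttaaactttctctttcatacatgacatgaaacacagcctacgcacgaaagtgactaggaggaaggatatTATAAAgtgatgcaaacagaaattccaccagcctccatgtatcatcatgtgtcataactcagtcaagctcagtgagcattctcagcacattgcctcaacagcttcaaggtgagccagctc
The PMAIP1 promoter held 4 GC boxes and 1 TGACG core, read on the opposite strand and beginning 55 bases before the start. That core, which factors such as ATF4 and CREB can bind, was also present in the promoters of BAX and BCL2, and in 24.3% of the 27305 promoters of the same length. The BAX promoter held 4 E boxes, the first of which shares 2 bases with its TGACG core. E boxes were present in 3 of the 9 member promoters and in 7.19% of all. GC boxes were present in 6 of the 9 and in 43.4% of all, and CCAAT boxes in 4 and in 35.4%. The BCL2A1 promoter was the one member promoter with a TATA box, beginning 70 bases before the start (12.3% of all promoters), and at 41.0% G and C it lay below BAX (67.3%) and PMAIP1 (71.3%). The NF-kB site was in none of the 9 windows and in 10.8% of all, and the p53 decamer in that of BAK1 and in 6.66% of all. Positions are counted from the RefSeq start, which for the 9 members lay 17 to 1536 bases inside the gene as GENCODE v29 gives it (250 for BCL2A1, 60 for BAX and 48 for PMAIP1), so the BCL2A1 window lies wholly within the GENCODE gene. These matches describe letters in a window of this length, not bound sites.

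MCL1 was the most abundant member in every library and BCL2L11 the least, with means over the 6 libraries of 454 and 3.60 FPKM, a 126-fold difference in level. Between them, in falling order of mean, stood BCL2A1 (245 FPKM), BAK1 (89.7), BCL2L1 (61.8), BAX (57.3), BID (35.3), BCL2 (10.8), PMAIP1 (10.1) and BBC3 (8.48). Neighbours in this order did not overlap over the libraries, with 3 exceptions. BCL2L1 and BAX overlapped (59.1 to 65.9 and 52.8 to 64.4 FPKM), although BCL2L1 was the higher of the pair in each of the 6 libraries. BCL2 exceeded PMAIP1 in 4 of 6 libraries, and the ranges of PMAIP1 and BBC3 also overlapped. Among all 17513 genes MCL1 ranked 137 by mean FPKM, BCL2A1 264, BAK1 788 and BCL2 5390. The name-giving BCL2 thus supplied 1.23% to 1.57% of the summed FPKM of the survival role, MCL1 57.2% to 59.9% and BCL2A1 30.5% to 33.4%.

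**Figure D1:**
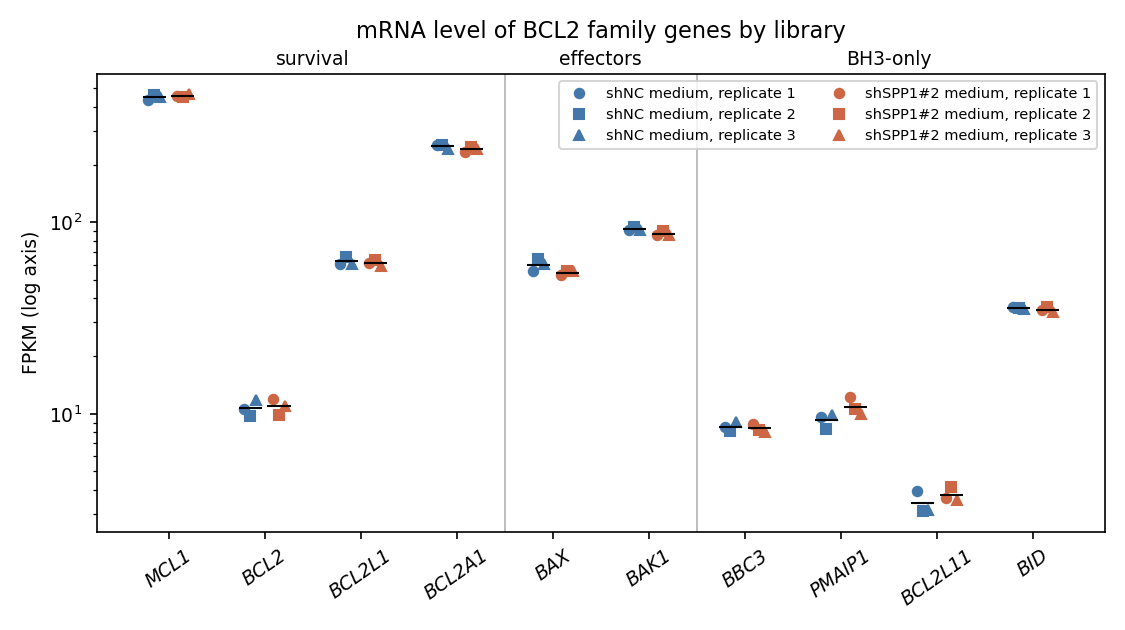
Level of each family gene in FPKM (log axis) in the 6 libraries, grouped by role. Colors mark the medium, symbols the replicate number and black lines the group means; the order from MCL1 (mean 454 FPKM) to BCL2L11 (3.60 FPKM) was shared by both media.

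The comparison of the media asks whether macrophages differ when the tumor cells carry a hairpin against SPP1; the series title frames it around M2-type macrophages. No member passed the edgeR quasi-likelihood test at an adjusted p below 0.05 over 13555 genes, where 0% of all genes passed. All 10 passed the filter on low counts. The smallest adjusted p in the family was 0.633. At an unadjusted p below 0.05 there were 2 members of 10, beside 6.85% of all genes. They were PMAIP1, higher in shSPP1#2 medium (3.45% of all genes were higher at this p), and BAX, lower (3.39%). With limma-voom, and with limma on log2(FPKM + 1) and log2(FPKM + 0.1), 0 members passed, and with DESeq2 0 of the 4 members it adjusted, beside 1.32% of the 1893 genes it adjusted. The median log2 fold change was -0.03 over the 10 members and -0.00030 over all genes tested. The 95% intervals, taken gene by gene, also rest on the spread among these 6 samples. They lay within 0.5 of 0 on the log2 scale for all 10 members. For 8 they lay within a 1.2-fold change in either direction, the exceptions being PMAIP1 and BCL2L11.

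**Figure D2:**
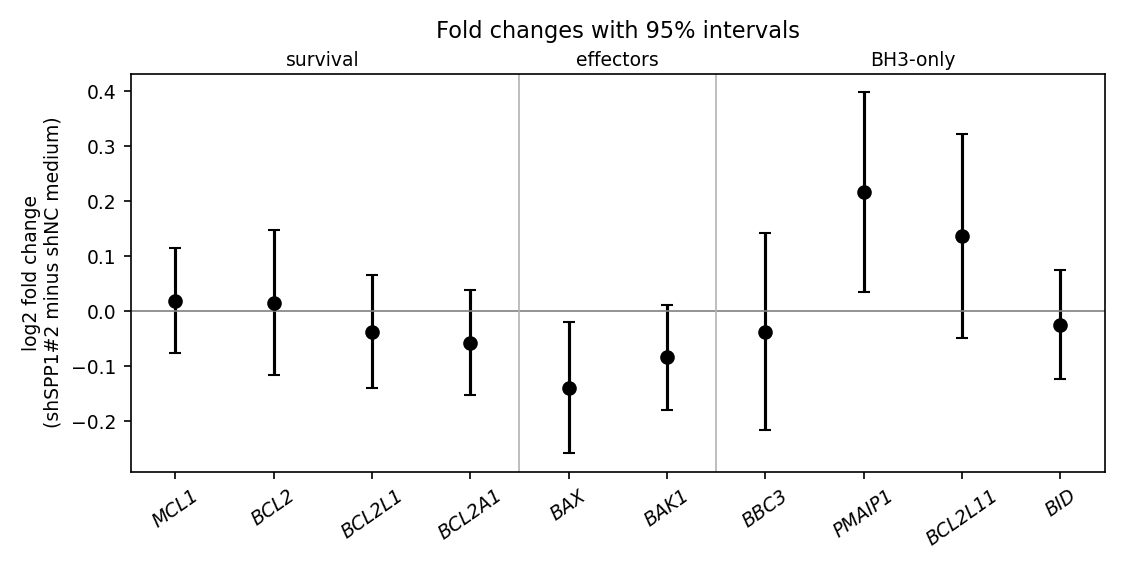
Log2 fold change of each member, shSPP1#2 minus shNC medium, from the edgeR fit over all genes (points) with its 95% interval (bars; n = 3 libraries per group). The intervals of PMAIP1 and BAX leave out 0, but neither gene passed after adjustment over 13555 genes.

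Survival members did not differ detectably. MCL1, on chromosome 1 (150574551 to 150579738, minus strand, GENCODE v29 on GRCh38), measured 435, 463 and 452 FPKM in shNC medium and 457, 453 and 464 FPKM in shSPP1#2 medium (replicates 1, 2 and 3 in this order, as for every gene that follows). The shNC libraries spanned nearly the whole range and the groups overlapped. Its log2 fold change was 0.02 with a standard error of 0.046 (95% interval -0.08 to 0.11, edgeR adjusted p = 0.967), so a change beyond 0.948-fold or 1.08-fold lies outside the interval. BCL2A1, on chromosome 15 (79960889 to 79971446, minus strand), measured 254, 253 and 241 FPKM in shNC and 232, 246 and 242 FPKM in shSPP1#2 medium. The lowest library was shSPP1#2 replicate 1, and shNC replicate 3 lay inside the range of the other group. Its log2 fold change was -0.06 (-0.15 to 0.04, edgeR adjusted p = 0.880).

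BCL2L1, which encodes BCL-XL and by alternative splicing the death-promoting BCL-XS, lies on chromosome 20 (31664452 to 31723989, minus strand). It measured 60.8, 65.9 and 60.7 FPKM in shNC and 61.0, 63.3 and 59.1 FPKM in shSPP1#2 medium, with replicate 2 the highest of either group. The log2 fold change was -0.04 (-0.14 to 0.07, edgeR adjusted p = 0.931). The antisense gene ABALON covers 43.0% of its exonic bases, and since no source used here gives the use of strand in counting, reads of the pair cannot be told apart; nor do gene-level counts separate the splice forms. BCL2, the founding survival gene, lies on chromosome 18 (63123346 to 63320128, minus strand). It measured 10.6, 9.73 and 11.8 FPKM in shNC and 11.97, 9.91 and 10.99 FPKM in shSPP1#2 medium, and here replicate 2 was the lowest of either group. The log2 fold change was 0.02 (-0.12 to 0.15, edgeR adjusted p = 0.983). Its sign rested on single libraries: leaving out shSPP1#2 replicate 1 gave -0.05 and leaving out shSPP1#2 replicate 2 gave 0.07.

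Both effectors had negative log2 fold changes, and neither passed the test. BAX, on chromosome 19 (48954815 to 48961798, plus strand), measured 55.7, 64.4 and 60.2 FPKM in shNC and 52.8, 55.4 and 55.4 FPKM in shSPP1#2 medium. All 3 shSPP1#2 libraries lay below the lowest shNC library, the closest of them at 55.4 against 55.7 FPKM. In CPM, counts scaled by library total and TMM factor, the groups overlapped, at 47.2, 53.7 and 50.5 CPM against 44.5, 47.9 and 45.1 CPM. The log2 fold change was -0.14 with a standard error of 0.057 (95% interval -0.26 to -0.02, unadjusted p = 0.0255, edgeR adjusted p = 0.657). Without shNC replicate 2, the highest library, it was -0.09, and without shNC replicate 1 it was -0.19.

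BAK1, the effector that sits in the outer membrane of healthy cells, lies on chromosome 6 (33572547 to 33580293, minus strand). It measured 91.4, 94.2 and 90.8 FPKM in shNC and 85.6, 90.4 and 85.7 FPKM in shSPP1#2 medium. The shSPP1#2 libraries were again lower without overlap in FPKM, whereas in CPM shSPP1#2 replicate 2, at 194 CPM, lay above shNC replicates 1 and 3, each at 193 CPM. The log2 fold change was -0.08 (-0.18 to 0.01, edgeR adjusted p = 0.780). Leaving out shSPP1#2 replicate 2 gave -0.12, and leaving out shSPP1#2 replicate 3 gave -0.06. The pseudogene GGNBP1 on the opposite strand covers 4.11% of its exonic bases. In all, 3 of the 10 members did not overlap between the groups in FPKM (BAX and BAK1 lower, PMAIP1 higher), beside 10.5% of all tested genes, 5.05% lower and 5.5% higher, and 0 of 10 did so in CPM, beside 11.1%.

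The BH3-only members had log2 fold changes of either sign, and none passed the test. PMAIP1, on chromosome 18 (59899948 to 59904306, plus strand), measured 9.58, 8.38 and 9.83 FPKM in shNC and 12.2, 10.6 and 9.98 FPKM in shSPP1#2 medium. The highest library was shSPP1#2 replicate 1, and shSPP1#2 replicate 3 lay just above the highest shNC library. In CPM the values were 18.0, 16.3 and 18.9 against 23.0, 20.2 and 18.8, and shSPP1#2 replicate 3 fell below shNC replicate 3. The log2 fold change of 0.22 was the largest of the family in size, with a standard error of 0.087 (95% interval 0.04 to 0.40, or 1.02-fold to 1.32-fold; unadjusted p = 0.0220, edgeR adjusted p = 0.633). It was 0.13 without shSPP1#2 replicate 1 and 0.16 without shNC replicate 2. The gene rested on 292 to 474 estimated counts per library. Counting alone would give a coefficient of variation of about 5.09%, and the observed one in CPM was 7.40% in shNC and 10.4% in shSPP1#2 medium.

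BCL2L11, whose product BIM can engage all the survival proteins, lies on chromosome 2 (111119378 to 111168447, plus strand). It measured 3.97, 3.12 and 3.16 FPKM in shNC and 3.65, 4.14 and 3.54 FPKM in shSPP1#2 medium. In shNC medium replicate 1 lay among the shSPP1#2 values and replicates 2 and 3 lay below them. The log2 fold change was 0.14 (-0.05 to 0.32, edgeR adjusted p = 0.836). It reached 0.24 without shNC replicate 1 (edgeR adjusted p = 0.580) and was 0.08 without shNC replicate 2 and 0.09 without shSPP1#2 replicate 2, so its size depended on which library was kept. The long noncoding gene MIR4435-2HG on the opposite strand covers 10.9% of its exonic bases.

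BBC3, a p53-inducible gene on chromosome 19 (47220822 to 47232766, minus strand), measured 8.49, 8.14 and 9.06 FPKM in shNC and 8.88, 8.28 and 8.05 FPKM in shSPP1#2 medium. The libraries of the groups were interleaved, and the log2 fold change was -0.04 (-0.22 to 0.14, edgeR adjusted p = 0.964). BID, which caspase-8 cleaves to link death receptors to mitochondria, lies on chromosome 22 (17734138 to 17774770, minus strand). It measured 36.0, 35.7 and 35.1 FPKM in shNC and 34.8, 36.2 and 34.1 FPKM in shSPP1#2 medium. Its groups overlapped too, with a log2 fold change of -0.02 (-0.12 to 0.07, edgeR adjusted p = 0.961).

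**Figure D3:**
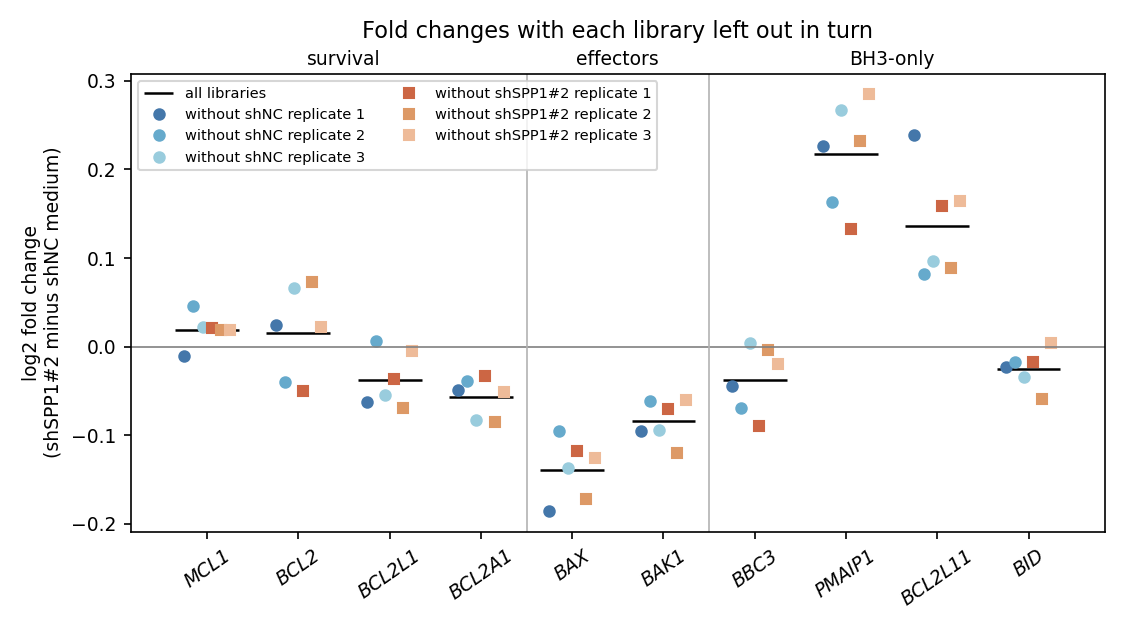
Log2 fold change of each member, shSPP1#2 minus shNC medium, with all libraries (black lines) and with each library left out in turn (circles, shNC; squares, shSPP1#2). PMAIP1 and BCL2L11 stayed above 0, from 0.13 to 0.28 and from 0.08 to 0.24, and BAX, BAK1 and BCL2A1 stayed below it, while MCL1, BCL2, BCL2L1, BBC3 and BID had values on both sides.

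The place of a library within its group was also counted. In CPM shNC replicate 2 was the highest or the lowest of its group for 10 of 10 members, beside 69.2% of all tested genes, and shSPP1#2 replicate 2 for 8 of 10, beside 70.9%. In FPKM the counts were 8 (68.1% of all genes) and 7 (68.9%), and shNC replicate 3 and shSPP1#2 replicate 3 were also at an end for 7 members each. In both units shNC replicate 2 was the highest of its group for MCL1, BCL2L1, BAX and BAK1 and the lowest for BCL2, BBC3, PMAIP1 and BCL2L11. MCL1 varied little in shSPP1#2 medium, by 0.33% in CPM against 3.98% in shNC medium, where counting alone would give 0.53%. BCL2 varied by 7.47% and 8.60% where counting would give 2.69%. The ratio of estimated counts to FPKM, which carries the transcript length assigned to a gene, also differed between libraries for some members. It ranged over 8.19% for BCL2L11, 8.10% for BBC3, 6.23% for BCL2 and 3.88% for BAX, and over 0.29% for MCL1 and 0.28% for BCL2A1, where the median gene of at least 5 FPKM ranged over 1.10%.

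Survival transcripts outweighed death transcripts in every library. The summed FPKM of the 4 survival members was 761, 791 and 765 in shNC and 762, 772 and 776 in shSPP1#2 medium, and overlapped. That of the 6 death members was 205, 214 and 208 in shNC and 198, 205.0 and 197 in shSPP1#2 medium. The ratio of survival to death was 3.71, 3.70 and 3.68 in shNC and 3.85, 3.77 and 3.95 in shSPP1#2 medium. In FPKM every shSPP1#2 library lay above every shNC library, and the means, 3.69 ± 0.016 and 3.85 ± 0.090 (SD, n = 3 each), differed by 4.32%. With sums of CPM the change was also 0.06 on the log2 scale, but the groups overlapped. There shSPP1#2 replicate 2 fell below shNC replicates 2 and 3. The ratio is a description of chosen genes and was given no test, and how often other sets of genes separate was not counted. The numerator was mostly MCL1 and the denominator mostly the effectors, whose sum was 147 to 159 FPKM in shNC and 138 to 146 FPKM in shSPP1#2 medium; the BH3-only sum was 55.3 to 58.0 and 55.6 to 59.5 FPKM. With each gene given equal weight, as the difference of mean log2(FPKM + 0.1), the change was -0.03, opposite in sign to the 0.06 of the summed ratio on the log2 scale, and without MCL1 it was 0.02.

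**Figure D4:**
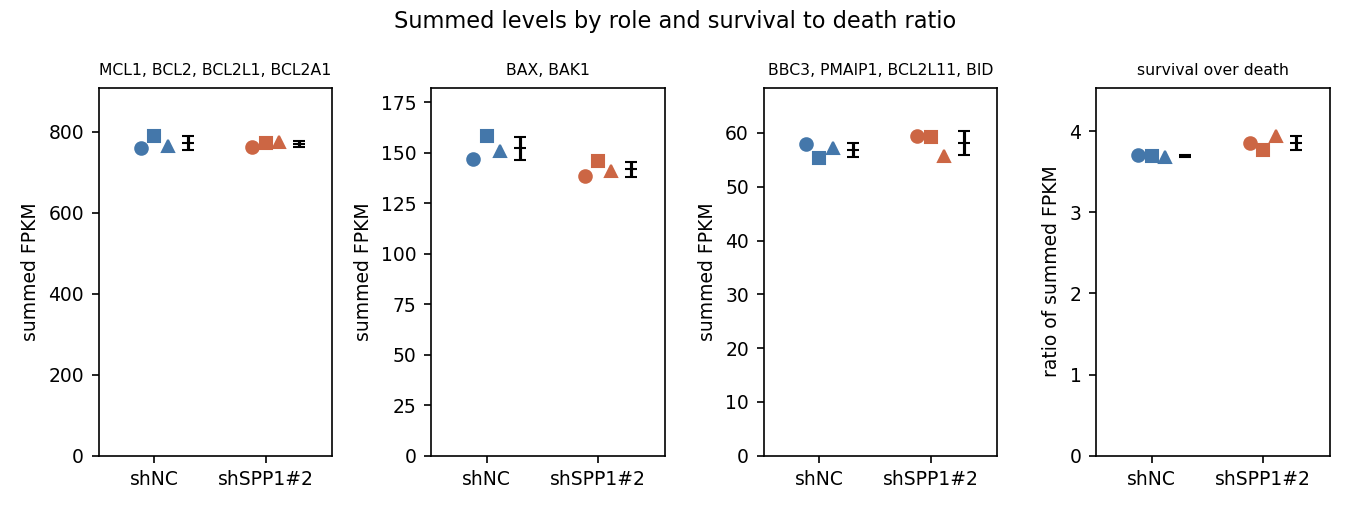
Summed FPKM of survival members, effectors and BH3-only members, and the ratio of survival to death members, per library (symbols mark replicates 1 to 3; black bars, mean and SD, n = 3). The ratio was 3.68 to 3.71 in shNC medium and 3.77 to 3.95 in shSPP1#2 medium, and the effector sums were 147 to 159 and 138 to 146 FPKM.

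Ratios of single members were also taken within each library. BCL2 over BAX, a measure often quoted for apoptosis, was 0.19, 0.15 and 0.20 in shNC and 0.23, 0.18 and 0.20 in shSPP1#2 medium, with overlapping groups. MCL1 stood 45.4, 55.2 and 46.0 times above PMAIP1, its BH3-only partner, in shNC medium, and 37.5, 42.7 and 46.5 times in shSPP1#2 medium. BCL2A1 stood 26.5, 30.2 and 24.5 times above PMAIP1 in shNC medium, and 19.1, 23.3 and 24.2 times in shSPP1#2 medium. The latter groups did not overlap in FPKM, the closest libraries being at 24.5 and 24.2, while those of MCL1 over PMAIP1 did. In CPM the groups of BCL2A1 over PMAIP1 overlapped, with shSPP1#2 replicate 3 above shNC replicate 3. MCL1 over BAK1 was 4.76, 4.91 and 4.98 in shNC and 5.34, 5.01 and 5.42 in shSPP1#2 medium, without overlap. PMAIP1 over BAX was 0.17, 0.13 and 0.16 in shNC and 0.23, 0.19 and 0.18 in shSPP1#2 medium, also without overlap. That ratio pairs the members of smallest p, which had opposite signs. The groups of BAK1 over BAX and of BCL2L1 over BAX overlapped. These ratios share the members already described and were not tested, and how often other pairs of genes separate was not counted.

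Other genes of the pathway were read from lists, and no gene of any list passed the edgeR test over all genes. Of 13 tested BCL2 relatives 8 had a positive and 5 a negative log2 fold change (median 0.04). At an unadjusted p below 0.05 in the edgeR test there was 1, beside 6.85% of all genes. This was BAD, a BH3-only gene controlled by phosphorylation, at 11.2, 11.4 and 11.2 FPKM in shNC and 9.42, 9.25 and 10.4 FPKM in shSPP1#2 medium (log2 fold change -0.21, 95% interval -0.40 to -0.02, edgeR adjusted p = 0.679). All 3 shSPP1#2 libraries were below the shNC libraries, as they were in FPKM for 5.05% of all tested genes. BCLAF1, a nuclear protein first found by its binding to the family, measured 0.10 and the mitophagy receptor BNIP3L, the most abundant of the list (93.5 FPKM), 0.07 on the log2 scale. With single libraries left out BCLAF1 ranged from 0.05 (without shNC replicate 2) to 0.14 and BNIP3L from 0.02 (without shSPP1#2 replicate 2) to 0.13.

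The 11 apoptosome and caspase genes had a median log2 fold change of -0.06, with 4 positive and 7 negative. DFFA, the inhibitor of the apoptotic nuclease, measured -0.11 (-0.21 to -0.01, edgeR adjusted p = 0.706), the initiator caspase CASP2 -0.09 and cytochrome c (CYCS, 45.1 FPKM) -0.06. With single libraries left out CASP2 ranged from -0.14 (shNC replicate 1 omitted) to -0.04 (shNC replicate 3 omitted), and CYCS from -0.11 (shSPP1#2 replicate 1 omitted) to -0.01 (shNC replicate 1 omitted). Among 10 caspase inhibitors and their antagonists the median was -0.01. XAF1, an antagonist of XIAP and interferon-inducible, measured 2.61, 2.00 and 2.49 FPKM in shNC and 2.79, 3.12 and 2.89 FPKM in shSPP1#2 medium (0.32, 0.08 to 0.55, edgeR adjusted p = 0.601). The inhibitor BIRC3, an NF-kB target, measured 4.13, 4.49 and 4.70 FPKM against 3.81, 3.53 and 4.05 FPKM (-0.19, -0.35 to -0.04, edgeR adjusted p = 0.633). The groups of XAF1 and BIRC3 did not overlap, in opposite directions, beside 10.5% of all tested genes without overlap in FPKM. BIRC3 was -0.13 without shNC replicate 3 and XAF1 0.21 without shNC replicate 2. CFLAR, the inhibitor of caspase-8 and the most abundant of this list at 59.3 FPKM, measured -0.04, and its sign changed without shSPP1#2 replicate 2 (0.0081).

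Genes that act on the members' proteins or transcription also had no call with edgeR. The 15 genes listed as outer membrane partners had a median of 0.02, and not all of them encode proteins of that membrane. The mitochondrial chaperone HSPA9 measured 0.11 (0.01 to 0.20, edgeR adjusted p = 0.654), the cholesterol-binding TSPO -0.12 and the abundant BCAP31 (385 FPKM) -0.01. TSPO was -0.06 without shNC replicate 2, and BCAP31 ranged from -0.05 to 0.02 with single libraries left out. The 10 genes of MCL1 protein turnover had a median of 0.04. GSK3B, a kinase that marks MCL1 for degradation, measured 0.09 (-0.01 to 0.20), the phosphatase DUSP4 -0.09, and TPT1, which binds and stabilizes MCL1 (374 FPKM), -0.06. GSK3B was 0.05 without shNC replicate 2, and DUSP4 ranged from -0.15 without shNC replicate 1 to -0.05 without shSPP1#2 replicate 1. The 19 transcription factors known to act on family genes had a median of 0.02. ATF4, a factor of the integrated stress response that acts on PMAIP1, measured 270, 257 and 261 FPKM in shNC and 290, 301 and 289 FPKM in shSPP1#2 medium. Its groups did not overlap, and 5.5% of all tested genes were likewise higher without overlap in FPKM. The log2 fold change of ATF4 was 0.15 (0.06 to 0.24, edgeR adjusted p = 0.486, DESeq2 adjusted p = 0.0344). REL, an NF-kB subunit that acts on BCL2A1, measured 0.10 (-0.02 to 0.21), and 0.05 without shSPP1#2 replicate 1 or 0.15 without shSPP1#2 replicate 2. ATF4 and PMAIP1 are given side by side, and a link between them was not tested.

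**Figure D5:**
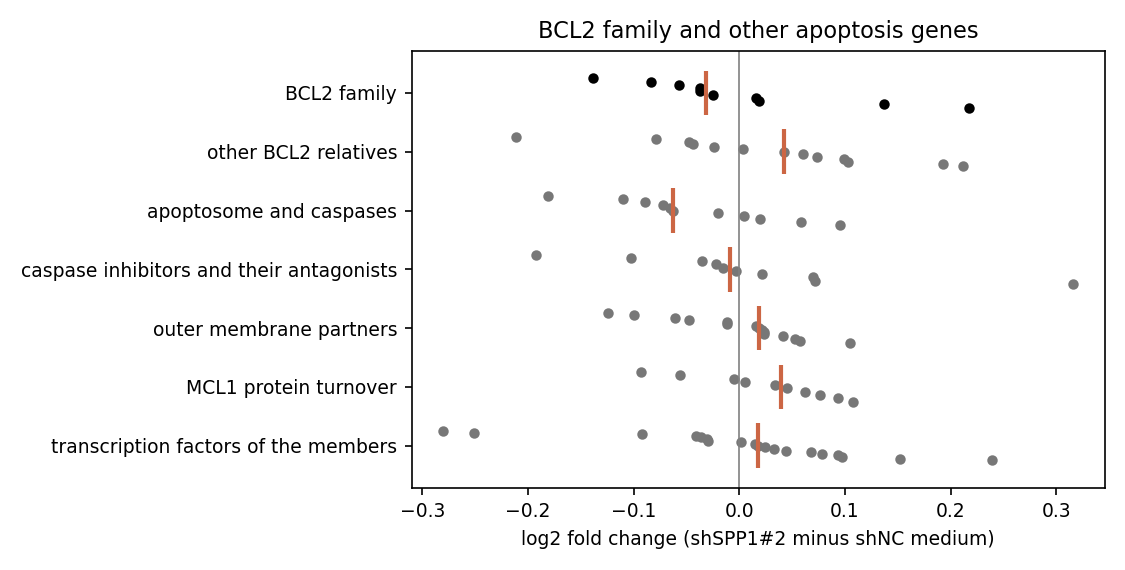
Log2 fold changes, shSPP1#2 minus shNC medium, of the 10 family members (black) and of the tested genes of 6 other apoptosis lists (grey), with list medians as orange bars. Medians lay between -0.06 and 0.04, and no gene passed the edgeR test over all genes.

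The genes whose level over the 6 libraries ran most like that of PMAIP1, by Pearson correlation of log2 CPM among 10625 genes outside the family, were IBTK (r = 0.994), SPECC1 (0.987) and COL4A2 (0.985). With 6 points that share library depth and scaling, 42 genes exceeded 0.95. Their log2 fold changes were 0.04, 0.19 and 0.15.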

How the data were processed

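Per the labels' protocols, RNA was extracted with TRIzol and its polyadenylated part sequenced by DNBSEQ (6 libraries). Per the submitters' processing notes the tools were HISAT2 2.0.4, Bowtie2 2.2.5 and RSEM, on GRCh38.p13; their order, the annotation and the strand setting are not stated there. The authors deposited estimated counts per gene, not scaled, and FPKM values scaled by length and library total. RSEM divides reads between transcripts, which can move counts between overlapping genes. Stray annotation lines (20) were dropped from the FPKM values. The members and gene lists were chosen with earlier results of these data known.

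Estimated counts were rounded, filtered with filterByExpr (13555 of 17513 genes kept), scaled by TMM and tested with edgeR 4.0.16 quasi-likelihood (R 4.3.3), as shSPP1#2 minus shNC and unpaired. P-values were adjusted over the whole table (Benjamini-Hochberg), with calls below 0.05. Levels between genes were compared in FPKM. The biological coefficient of variation was 4.54%, and totals of 18113591 to 20626346 counts gave a median standard error of 0.065 (log2) for genes at or above a mean log2 CPM of 2. The named genes were the 10 members, the 2 genes of smallest p and the most abundant of each list, and the 3 genes most like the member of smallest p. Alternatives were other scalings and filters, DESeq2 1.42.0, limma 3.58.1 (voom, or log2 FPKM with a pseudocount of 1 or 0.1), robust dispersion, a replicate block, a threshold of 0.1, and each library left out. The test was also run on simulated counts of independent libraries. That run held no shared effect of the replicate number, and its outcome is not reported here. Positions come from GENCODE v29 and promoters from RefSeq. Plots used matplotlib 3.10.9.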

Additional observations from a re-analysis of the deposited data

How the results depend on the processing

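No member passed under any alternative run, with the reservation that DESeq2 adjusted only 4 of the 10. Of 180 fold changes of members under alternatives 6 changed sign, all with a library left out and all of members near 0; BCL2A1, BAX, BAK1, PMAIP1 and BCL2L11 had none. The number of genes called over the whole table, 0 with the settings as reported, was 18 with no low-count filter, 25 with DESeq2 (1893 genes adjusted), 1 with limma-voom, 3 with robust dispersion, 1 with limma on log2(FPKM + 0.1), 2 at a threshold of 0.1, and 1 to 10 with single libraries left out; the cause was not tested. It stayed at 0 under the other scalings, the CPM filter and limma on log2(FPKM + 1). Of the 8 transcription factors that DESeq2 adjusted it called 1, ATF4, beside 1.32% of the 1893 genes it adjusted. The log2 change of the survival to death ratio, 0.061 as reported, was 0.019 without MCL1 and -0.025 with each gene weighted equally, and 0.044 to 0.077 with single libraries left out. With a replicate block 59 genes were called and 0 members (adjusted p = 0.255 for BAX and 0.299 for PMAIP1); among the markers named it called GNLY (-0.17, edgeR adjusted p = 0.0421). Same-numbered libraries had correlations of deviations of 0.21, 0.30 and 0.094, all positive. Those of different numbers ran from -0.28 to 0.11. The only positive one among these was that of shSPP1#2 replicate 3 with shNC replicate 1 (0.11), its best match. The labels state no pairing, so the reported test was unpaired. A shared effect of the replicate number was not tested. Depth limits PMAIP1, BCL2L11 and BBC3 most, at 230 to 474 estimated counts per library.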
